A study of Mus musculus with 2 samples.

Results

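Integrin α8, its ligand nephronectin and the Fraser complex were followed here through 9 genes: Itga8, Itgb1, Npnt, Fras1, Frem1, Frem2, Grip1, Itga3 and Itga6. They were taken by gene symbol from the 32285 genes of the count tables, with no threshold on a measured value, although the set was put together with earlier results of these data known, and all 9 were present in both tables. Their UMIs (unique molecular identifiers, each marking 1 captured transcript molecule) were summed over classes of nuclei that were named from marker genes outside this list.

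Integrin α8 pairs with the β1 chain, encoded by Itgb1, to form a receptor on mesenchymal cells of the developing kidney. Nephronectin, encoded by Npnt, is a matrix protein laid down in the basement membrane of the ureteric epithelium, and it binds this receptor through an arginine-glycine-aspartate motif. FRAS1, FREM1 and FREM2 form a complex just below epithelial basement membranes. GRIP1 is a PDZ-domain adaptor that carries FRAS1 and FREM2 to the basal cell surface, and loss of these proteins gives Fraser syndrome or related disorders, often with missing kidneys. Integrins α3 and α6, encoded by Itga3 and Itga6, are laminin receptors of epithelial cells, and α3 paired with β1 anchors podocytes to the glomerular basement membrane.

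The data were 2 single-nucleus RNA-seq libraries of mouse kidney, 1 per age. The E18.5 library (late embryonic) came from pooled male and female kidneys with floxed Myc and Mycn alleles on a mixed strain background and with no Cre, so that no recombination of these alleles was intended. The P3 library (postnatal day 3) came from pooled male and female wild-type kidneys on the C57BL/6J background, as the sample labels give it, whereas the methods of the study describe mice of mixed background at each age. By the labels the ages thus differ in genotype, strain and library as well, which cannot be told apart, and with 1 library per age no test between the ages was possible. Intervals below are exact 95% intervals that cover counting error only, not the spread between animals.

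Sequence is shown around the motif of nephronectin and at the coding ends of the 3 Fraser complex genes. All of it was read from GRCm38, on the coding strand. In Npnt the stretch runs across exons 8 and 9 on the minus strand of chromosome 3, and the capitals mark the 3 codons for arginine, glycine and aspartate (codons 382 to 384, chr3:132904665-132904673, exon 8).
Npnt: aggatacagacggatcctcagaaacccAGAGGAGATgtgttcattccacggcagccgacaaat
The last 45 coding bases of the 3 Fraser complex genes follow, with the last 4 codons in capitals. They lie at chr5:96781724-96781768 (plus strand, exon 74) for Fras1, chr3:53516535-53516579 (minus strand, exon 24) for Frem2 and chr4:82900402-82900446 (minus strand, exon 37) for Frem1. The cytoplasmic ends of FRAS1 and FREM2 are known to be bound by GRIP1, while FREM1 is secreted.
Fras1: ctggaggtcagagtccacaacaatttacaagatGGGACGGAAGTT
Frem2: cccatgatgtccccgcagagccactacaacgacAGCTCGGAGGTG
Frem1: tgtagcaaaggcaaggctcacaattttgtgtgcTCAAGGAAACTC
Of the 12 bases in capitals, Fras1 and Frem2 shared 7, Fras1 and Frem1 shared 5, and Frem2 and Frem1 shared 3. The run of arginine, glycine and aspartate codons was not particular to Npnt. The coding sequences read for Npnt, Fras1 and Frem1 each held 1 such run, and that of Frem2 held 0.

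After quality filtering and removal of called doublets, 17776 nuclei were used at E18.5 (median 2917.5 UMIs) and 9788 at P3 (median 4054 UMIs), and 69 barcodes occurred in both libraries. Clusters were called X-like where at least 3 markers of X were raised 2-fold or more. They covered nephron progenitor, podocyte, proximal tubule, loop of Henle, distal tubule, collecting system, urothelium, stroma, endothelium and leukocyte classes at both ages, and an early nephron class at P3. Nuclei left without a name made up 33.0% at E18.5 and 20.1% at P3, and the biggest unnamed cluster at each age was one of low UMI content (2815 nuclei with a median of 1255 UMIs; 1641 nuclei with a median of 977). The progenitor-like class differed in make-up between the ages. In it Cited1, a marker of uncommitted progenitors, stood at 29.98 CPM (UMIs per 1000000 UMIs of the class) at E18.5 and 1.21 at P3. Six2 stood at 27.4 and 10.3 CPM. The fall of Cited1 was not particular to this class. With classes taken from marker UMIs of single nuclei, it was 22.6 and 0.682 CPM in stroma-like nuclei. The values in endothelium-like nuclei so taken were 21.9 and 0.708 CPM. The 8 progenitor markers did not all fall, as 4 were at least 2-fold lower at P3 and 1 at least 2-fold higher. Their summed level was 2134 and 2107 CPM, most of it from Eya1 (1590 and 1562 CPM). The summed level of 8 early nephron markers was 516 and 2125 CPM. The P3 class is therefore called progenitor and early nephron-like below. The collecting system-like class also differed in make-up. At P3 it held a Trpv6-led cluster (90 nuclei) with distal tubule markers raised beside collecting duct markers. An E18.5 cluster of 325 nuclei shared 3 leading genes with it but stayed unnamed, because both marker families were raised alike. Levels are given as CPM of the class and are compared between classes or ages, never between genes, because they are not corrected for transcript length.

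Itga8, on chromosome 2 (12106632 to 12301922, minus strand), was high in the mesenchymal classes and low in the tubule-like classes. At E18.5 its level was 843 CPM (824-862) in nephron progenitor-like nuclei and 529 CPM (518-540) in stroma-like nuclei, a ratio of 1.59 (1.54-1.64). Together these classes held 39.5% and 44.5% of its 19376 UMIs. At P3 the order was turned, with 1067 CPM (1050-1085) in stroma-like nuclei and 469 CPM (450-489) in progenitor and early nephron-like nuclei, and stroma-like nuclei alone held 71.8% of 20969 UMIs. Endothelium-like nuclei came next at both ages, with 131 CPM and 355 CPM. In collecting system-like nuclei, the class that holds the ureteric epithelium, Itga8 stood at 55.9 CPM (49.0-63.5) and 63.7 CPM (55.6-72.6). Leukocyte-like nuclei, used as a class that should lack these genes, had 85.4 CPM and 119 CPM, so podocyte, collecting system, proximal, loop and distal tubule-like nuclei all fell at or below that background. From endothelium-like nuclei downward, all 7 neighbouring pairs of classes at E18.5 had a ratio whose interval held 1, so neighbours were not resolved. Classes further apart could differ, as the 131 CPM of endothelium-like nuclei lay above the collecting system-like interval (49.0-63.5).

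The contrast with the ureteric side was large at both ages. Stroma-like nuclei held 9.47 times (8.32-10.8) the Itga8 level of collecting system-like nuclei at E18.5 and 16.8 times (14.7-19.2) at P3. Progenitor-like nuclei held 15.1 times (13.2-17.2) that level at E18.5, and the progenitor and early nephron-like class 7.37 times (6.42-8.49) at P3. With every nucleus thinned to 1000 UMIs, 33.0% (31.7-34.3) of stroma-like nuclei had an Itga8 UMI at E18.5 and 52.6% (50.8-54.4) at P3. The unthinned shares were 58.2% and 82.9%, at median depths of 3013 and 4164 UMIs. In leukocyte-like nuclei the thinned shares were 5.77% and 8.47%, at median depths of 2310 and 2870 UMIs.

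**Figure D1:**
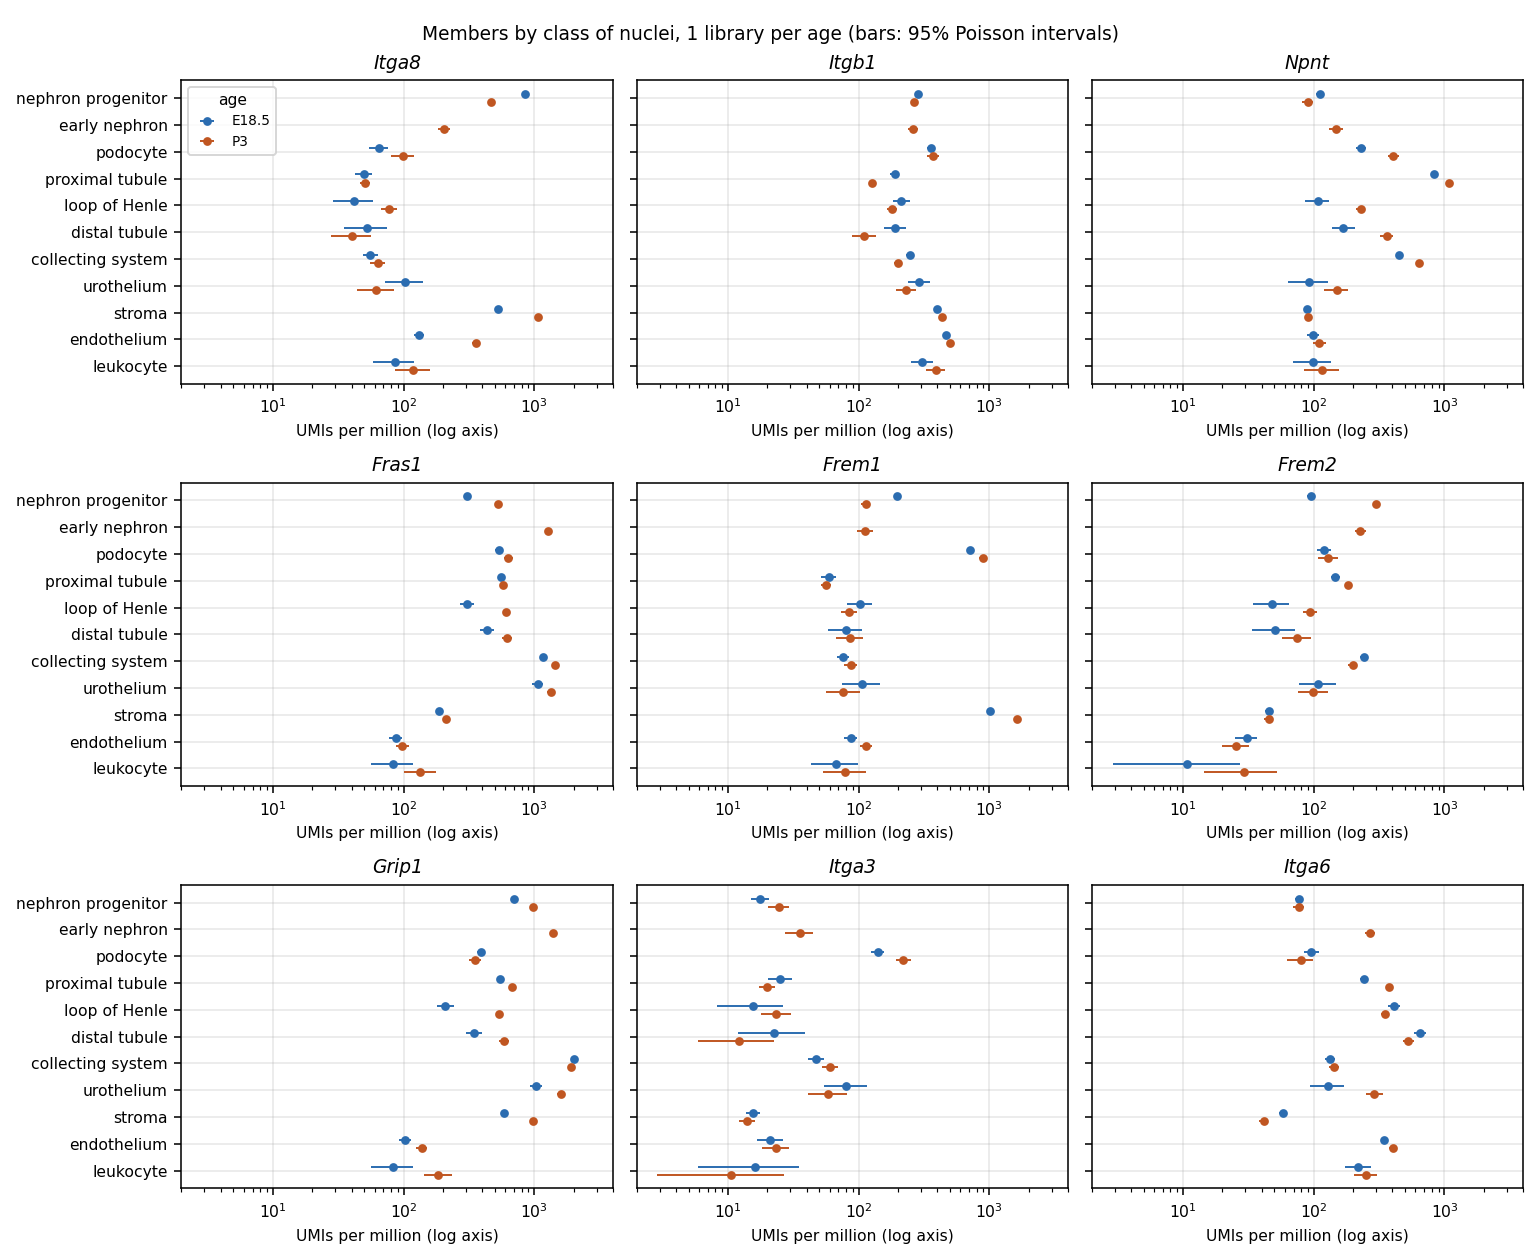
Level of each of the 9 genes (CPM, logarithmic axis) in each class of nuclei at E18.5 and P3; points are summed levels and bars exact 95% Poisson intervals, with 1 library per age. Itga8 stands highest in progenitor-like and stroma-like nuclei, Frem1 in stroma-like and podocyte-like nuclei, Npnt in proximal tubule-like nuclei, and Fras1 and Grip1 in collecting system-like nuclei.

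Within the stroma, Itga8 was not uniform. At E18.5 the cluster led by Epha3 and Hhip (2818 nuclei) had 661 CPM and the cluster led by Slc17a8 (592 nuclei) 647 CPM, whereas the cluster led by Gria1 and Col8a1 (1163 nuclei) had 198 CPM. Mural-like nuclei (smooth muscle and pericyte markers, 228 nuclei) had 477 CPM. The cluster led by Ebf2 (146 nuclei) had 62.0 CPM, below the leukocyte-like level. At P3 the cluster led by Scn9a and Col8a1 (570 nuclei) was highest at 1479 CPM, the one led by Clca3a1 (866 nuclei) had 1174 CPM, and those led by Zfp536 (1243 nuclei) and Slc17a8 (212 nuclei) had 926 and 924 CPM. Mural-like nuclei had 340 CPM and the Ebf2 cluster 79.4 CPM, in 28 and 34 nuclei.

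Clusters of the 2 ages were set side by side where they shared at least 3 of their 10 leading genes. The Gria1 and Col8a1 cluster of E18.5 and the Scn9a and Col8a1 cluster of P3 shared 5 (Gria1, Col8a1, Aox3, Caln1 and Scn9a), and between them Itga8 was 7.46 times (6.88-8.09) higher at P3 and Frem1 2.64 times (2.47-2.82). These matched clusters were not alike in all markers. Mural markers had a mean log2 rise of 0.65 in the E18.5 cluster (3 raised) and 1.38 in the P3 cluster (6 raised). The part of this difference in the ratios was not tested. In the Slc17a8 clusters the ratios were 1.43 (1.33-1.53) for Itga8 and 1.38 (1.31-1.44) for Frem1. In the Ebf2 clusters (1.28, 0.616-2.51) and in mural-like nuclei (0.714, 0.489-1.01) the Itga8 interval held 1. The difference of Itga8 between the ages was thus of unequal size among the matched stroma-like clusters.

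**Figure D2:**
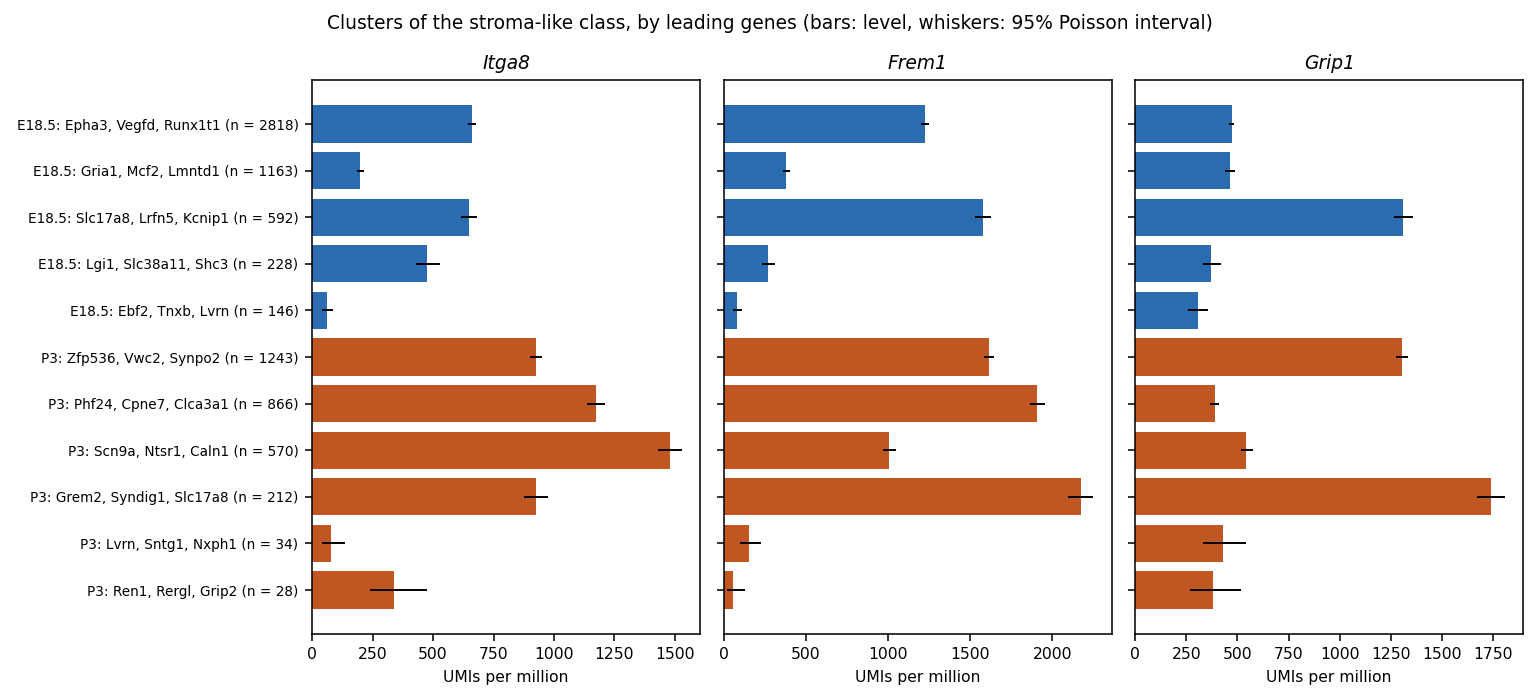
Level of Itga8, Frem1 and Grip1 (CPM) in each stroma-like cluster at E18.5 and P3, each cluster named by 3 of its leading genes and its number of nuclei (n); bars are summed levels and whiskers exact 95% Poisson intervals. The cluster labelled with Gria1 and Mcf2 had 198 CPM of Itga8 at E18.5, the one labelled with Scn9a and Ntsr1 had 1479 CPM at P3, and the Slc17a8 clusters are highest for Frem1 and Grip1 at both ages.

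Itgb1, the β1 chain shared by many integrins (chromosome 8, 128685654 to 128733200), was the most even of the 9 genes. It ranged from 188 CPM in proximal tubule-like to 467 CPM in endothelium-like nuclei at E18.5, and from 110 CPM in distal tubule-like to 500 CPM in endothelium-like nuclei at P3. Stroma-like nuclei came next at 398 and 434 CPM. It was the only member whose leading class stood less than 2-fold above leukocyte-like nuclei (1.52 and 1.29 times), a class that uses β1 integrins itself. Itga8 and Itgb1 UMIs occurred in the same stroma-like nuclei about as often as independent detection gives. After thinning, 544 nuclei held both at E18.5 against 532 expected (ratio 1.02, 0.938-1.11), and 527 against 521 at P3 (1.01, 0.928-1.10).

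Npnt (chromosome 3, 132881745 to 132950291, minus strand), the gene for nephronectin whose motif is printed above, was highest in proximal tubule-like nuclei at both ages. Its level there was 836 CPM (806-866) at E18.5 and 1075 CPM (1055-1096) at P3. Collecting system-like nuclei came next with 450 CPM (430-471) and 637 CPM (611-664), followed by podocyte-like nuclei with 230 and 405 CPM. The classes with high Itga8 stood near the leukocyte-like level, with 111 and 89.9 CPM in the progenitor-like classes and 89.0 and 91.0 CPM in stroma-like nuclei, beside 98.8 and 116 CPM in leukocyte-like nuclei themselves. Collecting system-like nuclei thus held 4.06 times (3.75-4.38) the Npnt level of progenitor-like nuclei at E18.5 and 7.09 times (6.40-7.87) that of the progenitor and early nephron-like class at P3. Within the collecting system, Npnt was lower in ureteric tip-like nuclei (357 CPM, 332-383) than in collecting duct-like nuclei (603 CPM, 568-641) at E18.5. A Ret-led cluster of P3, which shared 5 leading genes with the ureteric tip-like one, had 683 CPM. Its collecting duct markers were raised more than its ureteric tip markers (mean log2 rise 2.95 and 2.25), so it was not named tip-like. After thinning, 53.2% of proximal tubule-like and 33.5% of collecting system-like nuclei had an Npnt UMI at E18.5, and 60.4% and 41.6% at P3. Unthinned shares were 88.1%, 66.9%, 96.7% and 82.0% in the same order, at median depths of 3990, 3216, 6303 and 5035.5 UMIs. In leukocyte-like nuclei the thinned shares were 11.5% and 13.6%.

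Receptor and ligand levels tended to run in opposite directions over the classes, less closely at E18.5. The Pearson correlation of log2(CPM + 1) was -0.48 over 10 classes at E18.5 and -0.74 over 11 classes at P3. These are descriptions over few classes that share a library, and they are given without an interval. In progenitor-like nuclei, Itga8 and Npnt were found together in 97 nuclei against 105 expected at E18.5 (ratio 0.928, 0.752-1.13) and in 17 against 18.6 in the P3 class (0.913, 0.532-1.46), so neither more nor fewer joint detections were resolved.

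**Figure D3:**
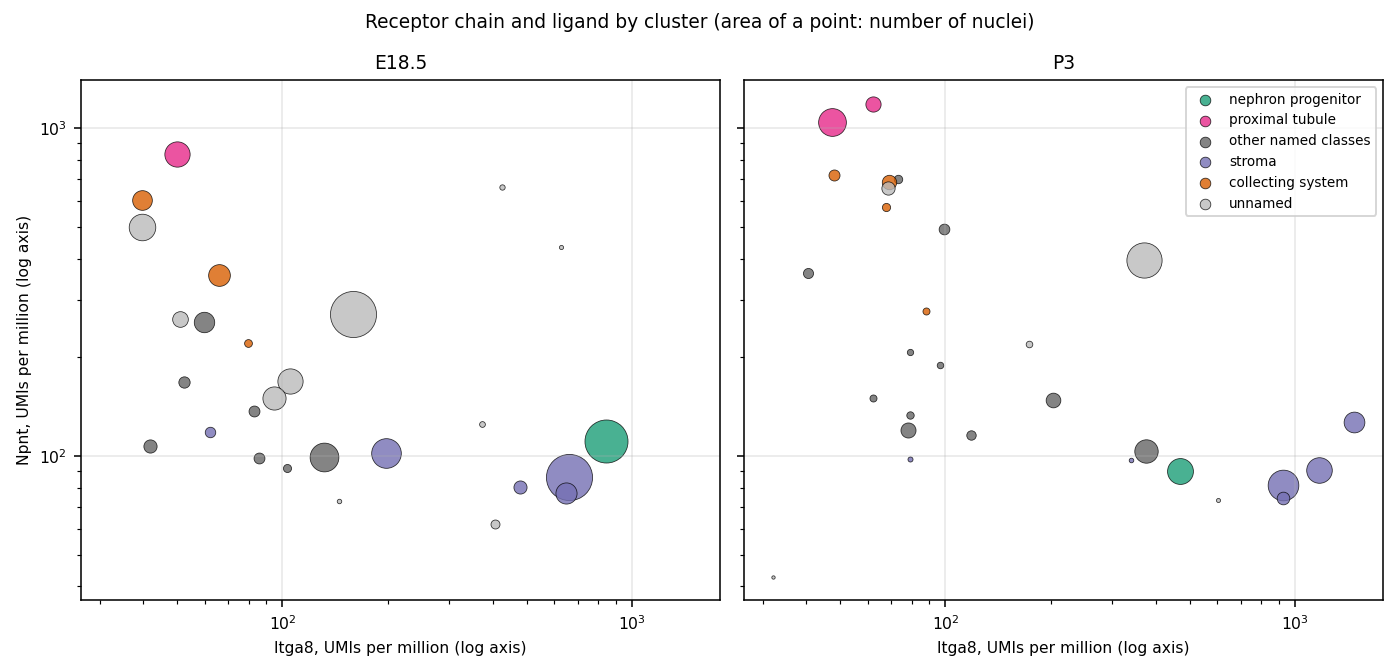
Itga8 level against Npnt level (CPM, both axes logarithmic) in every cluster of nuclei at E18.5 and at P3; the area of a point follows the number of nuclei and its colour the class. Clusters with the highest Itga8 levels are stroma-like or progenitor-like and have low Npnt, while proximal tubule-like and collecting system-like clusters have high Npnt and low Itga8. At E18.5, 2 small unnamed clusters (38 and 23 nuclei) are high for both. They were left unnamed for high UMI content, with medians of 7352.5 and 6048 UMIs against 2917.5 in the library. Each had nephron progenitor markers raised beside proximal tubule or collecting duct markers.

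Fras1 (chromosome 5, 96373955 to 96784728) was highest in the collecting system-like class, with 1169 CPM (1136-1202) at E18.5 and 1432 CPM (1393-1473) at P3. Urothelium-like nuclei followed closely at 1061 and 1331 CPM, and the ratios between these classes had intervals that held 1. At P3 early nephron-like nuclei had 1268 CPM (1218-1320). Proximal tubule-like nuclei had 552 and 577 CPM, and stroma-like nuclei 188 and 211 CPM. The collecting system to stroma ratio was 6.22 (5.94-6.51) at E18.5 and 6.77 (6.47-7.09) at P3. Endothelium-like nuclei (87.4 and 98.2 CPM) and leukocyte-like nuclei (82.8 and 135 CPM) gave the background. Ureteric tip-like nuclei at E18.5 exceeded collecting duct-like nuclei, at 1391 CPM (1341-1442) against 1045 CPM (998-1094), and intercalated-like nuclei were lowest of the collecting system at 355 CPM (292-427).

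Frem2 (chromosome 3, 53513938 to 53657355, minus strand) had the lowest counts of the 3 complex genes, with 6303 UMIs at E18.5 and 6470 at P3. Its level was 240 CPM (226-255) in collecting system-like nuclei at E18.5, ahead of proximal tubule-like nuclei with 147 CPM (134-160). At P3 it was 297 CPM (282-312) in the progenitor and early nephron-like class, 227 CPM (206-250) in early nephron-like and 199 CPM (184-214) in collecting system-like nuclei. Leukocyte-like nuclei had 10.7 and 29.0 CPM. Stroma-like nuclei had 45.8 and 45.3 CPM, so the collecting system to stroma ratio was 5.25 (4.77-5.78) and 4.39 (3.93-4.89). Ureteric tip-like nuclei had 364 CPM (339-391) at E18.5, against 127 CPM (111-144) in collecting duct-like nuclei. An equal level, 364 CPM, was found in a cluster of 933 nuclei led by Grid1 and Pcsk2 that was left unnamed because proximal tubule and early nephron markers were raised alike. The cluster of P3 with those leading genes (233 nuclei) had the highest Frem2 level of its library, 465 CPM (1.28 times, 1.16-1.41). Which class led for Frem2 depended on the clustering at both ages. At E18.5 the collecting system to proximal tubule ratio was 1.64 in the clusters used here and 0.991 with Leiden clusters, and at P3 the progenitor to early nephron ratio was 1.31 and became 0.534 when called doublets were kept.

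Frem1 (chromosome 4, 82897920 to 83052339, minus strand), the secreted member, had the opposite compartment. Stroma-like nuclei held 69.9% of its UMIs at E18.5 and 83.3% at P3, with 1014 CPM (999-1030) and 1613 CPM (1592-1634). Podocyte-like nuclei came next at 706 CPM (673-741) and 888 CPM (831-949). Collecting system-like nuclei had 76.1 and 87.2 CPM, near the 66.7 and 79.1 CPM of leukocyte-like nuclei, and their ratio to the stroma was 0.0750 (0.0670-0.0838) and 0.0541 (0.0481-0.0605). After thinning, 53.8% of stroma-like nuclei had a Frem1 UMI at E18.5 and 71.9% at P3 (unthinned 78.4% and 92.2%), beside 6.41% and 8.47% of leukocyte-like nuclei. Among stroma-like clusters the Slc17a8 cluster was highest at both ages, at 1578 and 2173 CPM, and the Ebf2 cluster was low at 81.4 and 153 CPM. Mural-like nuclei had 271 CPM (234-311) at E18.5 and 58.4 CPM (21.4-127) at P3, the latter from 6 UMIs. Itga8 and Frem1 were detected together in 1032 stroma-like nuclei at E18.5 against 876 expected (ratio 1.18, 1.11-1.25). With the expected number summed over clusters, an alternative chosen after the data were seen, the ratio was 1.05 (0.986-1.12). At P3 the ratio over the whole class was 1.03 (0.974-1.09).

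The levels of all 3 genes of the complex were high in a small cluster of podocyte-like nuclei. Podocyte-like nuclei formed 2 clusters at each age. The smaller, led by Ndnf and Stac2 among others, held 158 nuclei at E18.5 and 57 at P3, and the larger held 552 and 152. At both ages the smaller cluster had the highest Fras1 and Frem1 levels of any cluster in its library. For Fras1 its interval overlapped that of the next cluster at both ages, so this first place was not resolved. The intervals were 1388-1605 against 1341-1442 CPM in ureteric tip-like nuclei at E18.5. At P3 they were 1582-1889 against 1514-1755 CPM in a collecting duct-like cluster. Fras1 stood at 1494 CPM there against 274 CPM in the larger cluster at E18.5 (5.46 times, 4.86-6.13), and at 1730 against 180 CPM at P3 (9.64 times, 7.92-11.8). For Frem1 the levels were 2266 against 284 CPM (7.97 times, 7.18-8.87) and 2592 against 189 CPM (13.7 times, 11.4-16.6). Frem2 was 6.12 times (4.77-7.87) and 17.2 times (10.2-31.1) higher, the latter from 113 and 16 UMIs, and Grip1 1.99 times (1.73-2.29) and 3.43 times (2.77-4.27). The other direction was seen for Itga3 and Npnt. Itga3 was 0.491 times (0.340-0.690) and 0.545 times (0.377-0.771) the level of the larger cluster, and Npnt 0.538 times (0.411-0.695) and 0.384 times (0.284-0.512).

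The markers of the smaller cluster did not follow 1 direction. Wt1, a podocyte transcription factor also active in their precursors, was 1.56 and 1.36 times higher in it. Nphs1, which codes for the slit diaphragm protein nephrin, was lower, at 0.268 and 0.316 times the level of the larger cluster. The clusters were made without the 9 genes, but after the podocyte class was named this pair was looked at because of its levels, and it is given as a description. After thinning to 1000 UMIs, Fras1 and Frem1 UMIs were found together in 63.3% of nuclei of the smaller cluster at E18.5 and 57.9% at P3, beside 6.16% and 1.97% of the larger. All 3 genes were found together in 25 of 158 and 6 of 57 nuclei of the smaller cluster and in 7 and 2 of the larger. This count is given for podocyte-like nuclei only. Over all podocyte-like nuclei, joint detection of Fras1 and Frem1 was 1.85 times (1.55-2.19) the number expected at E18.5 and 1.82 times (1.28-2.52) at P3. Within clusters the ratios were 1.15 (0.960-1.36) and 1.02 (0.715-1.41).

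**Figure D4:**
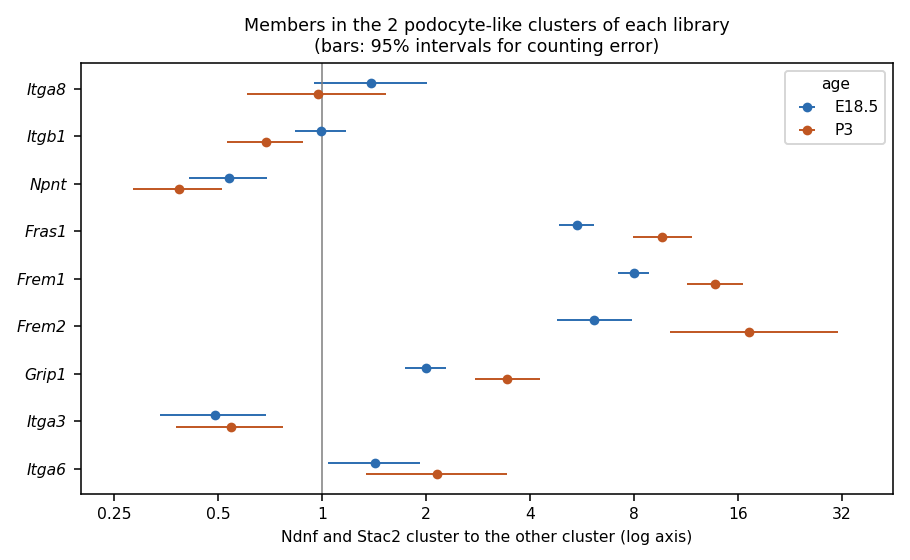
Ratio of the level of each of the 9 genes in the podocyte-like cluster led by Ndnf and Stac2 to its level in the larger podocyte-like cluster, at E18.5 and P3 (logarithmic axis); points are ratios, bars exact 95% conditional intervals, and the vertical line marks a ratio of 1. Fras1, Frem1, Frem2 and Grip1 lie to the right of the line at both ages and Itga3 and Npnt to the left, while the Itga8 interval holds 1 at both ages.

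Grip1 (chromosome 10, 119453830 to 120087261), the adaptor, was highest in collecting system-like nuclei at 2007 CPM (1965-2051) at E18.5 and 1898 CPM (1853-1945) at P3. Urothelium-like nuclei came next with 1027 and 1590 CPM, and early nephron-like nuclei of P3 had 1401 CPM. In the stroma it stood at 589 CPM (577-601) and 978 CPM (962-995), beside 82.8 and 185 CPM in leukocyte-like nuclei. The Slc17a8 stroma-like cluster had 1312 and 1740 CPM. Within the collecting system the order at E18.5 was reversed from that of Fras1, with 2672 CPM (2597-2750) in collecting duct-like and 1606 CPM (1552-1660) in ureteric tip-like nuclei. At P3 the Ret-led cluster, with both collecting duct and ureteric tip markers raised, was highest at 2253 CPM. The Slc14a2-led collecting duct-like cluster had 1944 CPM.

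In collecting system-like nuclei, Fras1 and Frem2 were detected together after thinning in 160 nuclei at E18.5 against 134 expected from independent detection, a ratio of 1.19 (1.02-1.39). At P3 there were 75 nuclei against 68.1 expected (1.10, 0.866-1.38). When the expected number was summed over the clusters of the class the ratios were 1.11 (0.946-1.30) and 1.05 (0.829-1.32), both with intervals that held 1. Fras1 and Grip1 were found together at 0.989 times (0.910-1.07) and 1.06 times (0.945-1.18) the expected number, and Frem2 and Grip1 at 0.920 times (0.781-1.08) and 1.09 times (0.863-1.36). Thinned to 2000 UMIs, the Fras1 and Frem2 ratio over the class was 1.10 (0.982-1.22) at E18.5 and 1.05 (0.899-1.23) at P3. Both intervals held 1 at that depth.

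Over the classes, Fras1 and Frem2 had similar patterns (Pearson r of log2(CPM + 1) 0.89 over 10 classes at E18.5 and 0.82 over 11 at P3), as did Fras1 and Grip1 (0.86 and 0.82). Fras1 and Frem1 were not alike (-0.05 and -0.23). Among 6999 genes with at least 50 CPM in a class of both libraries, the 3 most like Fras1 were Patj, Ptpn13 and Myo5b, and those most like Frem1 were Pde3a, Tcf21 (itself a stroma marker) and Sept11. Itga8 was most like Rem1, Ttc28 and Adamts12, with r between 0.90 and 0.96. Npnt was most like Chpt1, Gprc5c and Kif12. The second gene in the list of Grip1, after Setbp1, was Fras1. For Frem2 the most similar were Sec22a, Rims2 and Pabpn1, and for Itgb1 they were Sh3pxd2b, Ptpn12 and Rab2a. Points of these correlations share a library and its depth.

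Itga3 (chromosome 11, 95044474 to 95076801, minus strand) had the fewest UMIs of the 9 genes, 1579 at E18.5 and 1290 at P3. It was highest in podocyte-like nuclei at 140 CPM (125-156) and 220 CPM (191-251), beside 16.02 and 10.55 CPM in leukocyte-like nuclei, from 6 and 4 UMIs. Urothelium-like nuclei (80.5 and 58.6 CPM) and collecting system-like nuclei (47.3 and 60.5 CPM) came next. The ratio of the first to the second class was 1.73 (1.18-2.63) at E18.5 and 3.63 (2.99-4.405) at P3. The larger podocyte-like cluster had the highest level of any cluster at both ages, 157 and 253 CPM. Genes with the most similar pattern were Rras2, Man1a2 and Cd2ap, the last of which codes for a slit diaphragm adaptor.

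Itga6 (chromosome 2, 71745616 to 71858416) had a pattern of its own among the integrin chains. It was highest in distal tubule-like nuclei at 648 CPM (584-717) at E18.5 and 528 CPM (480-581) at P3. With Leiden clusters the distal tubule to endothelium ratio at P3 was 0.833, so endothelium-like nuclei then stood higher. Loop of Henle-like nuclei had 409 and 350 CPM, endothelium-like nuclei 345 and 401 CPM, and proximal tubule-like nuclei 241 and 379 CPM. Leukocyte-like nuclei were not low for Itga6, at 219 and 251 CPM. The lowest class at both ages was the stroma-like one, with 58.1 CPM (54.5-61.9) and 41.5 CPM (38.2-44.97), where Itga8 was high. Over the classes Itga6 ran against Frem1 (r of -0.70 and -0.79).

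Seen from the compartments, 7 of the 9 genes had the same leading class at both ages, and Itga8 and Frem2 were the exceptions. The number was 6 with Leiden clusters and 6 with classes from marker UMIs of single nuclei. In the clusters used here the early nephron class was named at P3 only. The share of all genes that keep their leading class is not given here, for this count or for the pathway lists below. Whether these counts are high or low among all genes is therefore not known. Of 171 neighbouring pairs in the orders of classes, 91 had a ratio whose interval held 1.

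Other genes of these pathways were read from lists of 45 genes. Of 14 other integrin α chains, 10 had the same leading class at both ages. Itga9, another matrix receptor chain, was highest in stroma-like nuclei (732 and 999 CPM), and Itga1, a collagen receptor chain, in proximal tubule-like nuclei (704 and 566 CPM). Of 7 other β chains, 5 had the same leading class at both ages. Itgb6, an epithelial chain that pairs with αv and helps activate latent TGF-β, was highest in proximal tubule-like nuclei (1432 and 1810 CPM), as was Itgb8 (248 and 247 CPM), while Itgb5 was highest in podocyte-like nuclei (657 and 757 CPM). Among 5 other α8β1 ligands, Fn1 (fibronectin) led in stroma-like nuclei at 421 and 597 CPM, Egfl6 in loop of Henle-like nuclei at 110 and 172 CPM, and Vtn (vitronectin) had 4 and 7 UMIs in all. Tnc (tenascin-C) led in progenitor-like nuclei at E18.5 (258 CPM) and in stroma-like nuclei at P3 (245 CPM). Vwa2, which codes for AMACO, a matrix protein bound to the Fraser complex, led in collecting system-like nuclei at 61.8 and 55.1 CPM, while Frem3 had 34 and 63 UMIs. Among 12 integrin adaptors, Parva (α-parvin) and Kank1 led in podocyte-like nuclei (875 and 1050 CPM; 823 and 1412 CPM) and Ptk2 (focal adhesion kinase) in endothelium-like nuclei (944 and 1453 CPM). Of the 4 partners of integrins α3 and α6, Plec (plectin) led in urothelium-like nuclei at 77.7 and 329 CPM, and 2 of 4 had the same leading class at both ages.

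Between the ages, the 10 classes found in both libraries were compared, which gave 90 pairs of a member and a class, 88 of them with at least 20 UMIs. In 9 pairs the P3 level was at least 2-fold higher, and in none was it 2-fold lower. The count was 5 with called doublets kept, and 5 with 20 neighbours, where 9 classes were found at both ages. These comparisons have no replicate, and the share of all genes past the same limit is given beside each class. In stroma-like nuclei 1 of 9 members was past 2-fold, Itga8 (529 to 1067 CPM, ratio 2.02, 1.96-2.07), where 3.53% of 17281 genes were 2-fold higher and 14.7% 2-fold lower. With Leiden clusters the ratio was 1.98. Frem1 was 1.59 times (1.56-1.62) and Grip1 1.66 times (1.62-1.71) higher there. In endothelium-like nuclei 1 of 9 was past 2-fold, again Itga8 (131 to 355 CPM, ratio 2.71, 2.42-3.03), where 3.2% of genes were higher and 13% lower. Stroma markers moved in both directions in these nuclei, but more were at least 2-fold lower at P3 than at least 2-fold higher. Of 10 interstitium markers, 4 were lower by that limit and 1 higher, and of 11 mural markers 2 were lower and 0 higher. Meis1 went from 143 to 253 CPM and Ntn1 from 24.3 to 49.4 CPM, while Col3a1 went from 306 to 193 CPM and Tcf21 from 68.6 to 32.4 CPM. The summed level of 10 interstitium markers was 1037 CPM at E18.5 and 858 CPM at P3, that of 11 mural markers 273 and 198 CPM, none was at 0, and their part in the Itga8 value was not tested. The endothelial ratio was 1.75 when called doublets were kept and between 2.44 and 2.89 under the other settings. Between matched endothelium-like clusters the Itga8 ratio was 2.86 (2.56-3.20). The same P3 cluster also matched an unnamed E18.5 cluster of 107 nuclei with endothelium markers raised, where the ratio was 0.925 (0.807-1.06). That cluster was left unnamed for high UMI content (median 5487), and mural and interstitium markers were raised in it too.

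In the progenitor-like classes 1 of 9 was past 2-fold, Frem2 (94.9 to 297 CPM, ratio 3.13, 2.87-3.41), where 4.81% of genes were higher and 12.5% lower. Itga8 was 0.557 times (0.531-0.583) and Frem1 0.575 times (0.522-0.633) the E18.5 level, and Fras1 1.72 times (1.63-1.82). Early nephron markers moved with this comparison. Of the 8, 5 were at least 2-fold higher at P3, none was at 0, and their part in the member values was not tested. An unnamed E18.5 cluster with the leading genes Tacr1 and Tmem132b, also among the leading genes of the P3 class, had 105 CPM of Itga8 and 215 CPM of Frem2. Nuclei taken by progenitor marker UMIs alone were few, 78 at E18.5 with 1056 CPM of Itga8 (936-1187) and 13 at P3 with 451 CPM (302-647).

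In loop of Henle-like nuclei 3 of 9 were past 2-fold, Npnt (107 to 228 CPM, ratio 2.12, 1.70-2.68), Fras1 (305 to 612 CPM, 2.01, 1.76-2.30) and Grip1 (208 to 534 CPM, 2.56, 2.18-3.01), where 6.57% of genes were higher and 10.5% lower. The P3 class included a cluster of 95 nuclei led by Prox1 and Scel among others, with 699.6 CPM of Npnt. Between the Slc12a1-led clusters of both ages the ratios were 1.12 (0.865-1.45) for Npnt, 1.81 (1.57-2.08) for Fras1 and 2.02 (1.71-2.40) for Grip1. The same E18.5 cluster also matched a P3 cluster of 73 nuclei led by Cwh43 and Cldn16, where the ratios were 1.24 (0.865-1.77), 0.973 (0.775-1.22) and 1.17 (0.899-1.51), all with intervals that held 1. With called doublets kept the class ratios were 1.47, 1.62 and 1.37, all under 2-fold. None of the 9 was past 2-fold in podocyte-like nuclei (2.87% of genes higher, 14.2% lower), in proximal tubule-like nuclei (6.83% and 12.5%) or in collecting system-like nuclei (4.25% and 13.3%). In the podocyte-like class Npnt was 1.76 times (1.54-2.004) and Itga3 1.57 times (1.32-1.87) higher.

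The 3 smallest classes had 1 member each past 2-fold. It was Npnt in distal tubule-like nuclei (169 to 360 CPM, ratio 2.14, 1.69-2.72), where 4.36% of genes were higher and 14.2% lower, and Itga6 in urothelium-like nuclei (128 to 291 CPM, ratio 2.28, 1.64-3.23), where 5.54% were higher and 9.35% lower. With called doublets kept these ratios were 1.62 and 1.90. In leukocyte-like nuclei Grip1 went from 82.8 to 185 CPM (31 and 70 UMIs, ratio 2.23, 1.44-3.52), where 6.13% were higher and 14.4% lower. This is the class read as background above, so the background of Grip1 was itself higher in the P3 library.

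Gene length moved with the age ratio. Genes over 100 kb had a median log2 ratio of 0.14 to 0.41 over the 10 classes, against -0.02 to -0.19 for all genes and -0.27 to -0.60 for those under 20 kb. Of the 9 members, 6 are longer than 100 kb (Itga8, Fras1, Frem1, Frem2, Grip1 and Itga6). Among genes of that length 7.96% were 2-fold higher in stroma-like, 8.71% in endothelium-like, 12.1% in progenitor-like, 12.97% in loop of Henle-like, 6.61% in urothelium-like and 13.1% in leukocyte-like nuclei, the classes where a member over 100 kb was past 2-fold. The part of gene length in the member ratios was not tested, and whether introns were counted the same way in both libraries is not given in the sources used here.

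**Figure D5:**
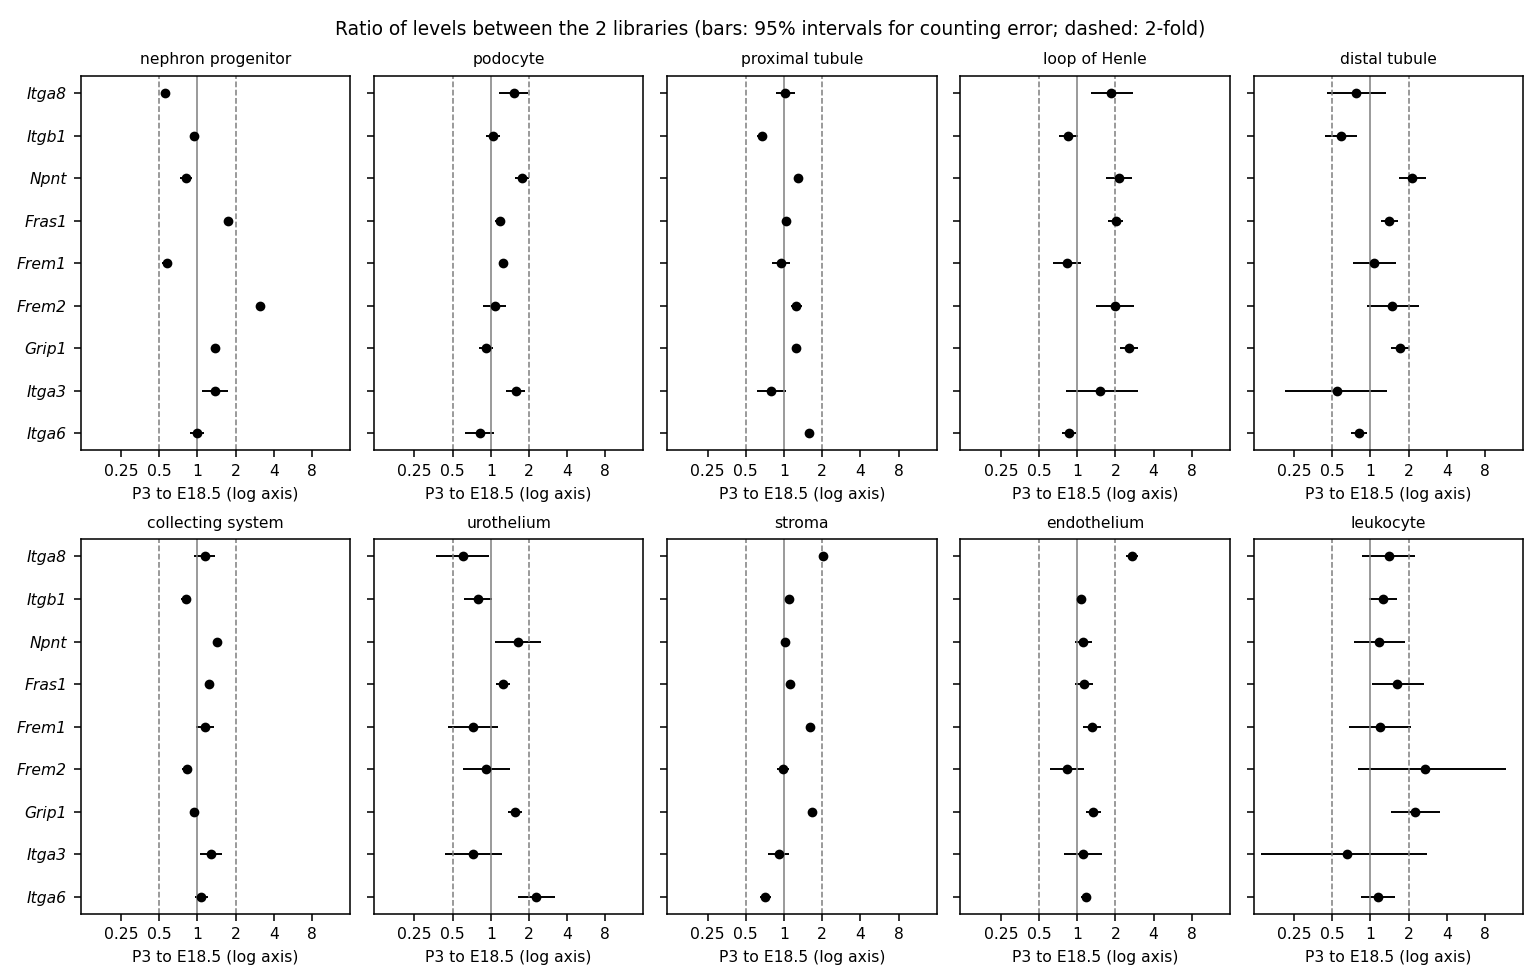
Ratio of the P3 to the E18.5 level of each of the 9 genes in the 10 classes found at both ages (logarithmic axis); points are ratios and bars exact 95% conditional intervals, with dashed lines at 2-fold higher and lower. Itga8 in stroma-like (2.02) and endothelium-like (2.71) nuclei and Frem2 in progenitor-like nuclei (3.13) lie past the upper line, with 3 ratios in loop of Henle-like nuclei and 1 each in distal tubule-like (Npnt), urothelium-like (Itga6) and leukocyte-like (Grip1) nuclei. The leukocyte-like Frem2 and Itga3 ratios rest on under 20 UMIs and were not counted.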

How the data were processed

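Nuclei were isolated from frozen, pooled mouse kidneys, and 3' single-nucleus libraries were made with a 10x Genomics kit. The authors deposited UMI counts per gene and barcode as Cell Ranger matrices. The submitters' processing notes give Cell Ranger 5.0.1 and mm10 for both libraries, whereas the matrix headers give 7.0.0 for E18.5 and 5.0.1 for P3. Whether introns were counted is not given in the sources used here. The tables hold 21600 barcodes with 77688411 UMIs at E18.5 and 12216 with 70559806 at P3. Empty droplets and other nuclei not in these tables were not analysed here.

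Barcodes more than 3 median absolute deviations low in UMIs or genes were left out. The limit for the mitochondrial share was the median plus 3 such deviations or plus 0.5 percentage points, whichever was larger. It came to 0.602% at E18.5 and 0.575% at P3. Nuclei called doublets by scrublet (scanpy 1.11.5, expected rate 0.1) were left out as well: 3494 (16.4%) and 1977 (16.8%). Each library was normalised and clustered on its own with scran 1.30.0, by Walktrap on a shared neighbour graph as the study's methods give for its landmark selection. The 2000 variable genes, 50 components and 10 neighbours were chosen here, and clustering was done without the 9 genes and the 45 pathway genes. Clusters were named by markers raised 2-fold or more, and the naming rule was set after the clusters were seen. Clusters with 2 marker families raised alike, or with extreme UMI counts, stayed unnamed. Levels were summed UMIs per 1000000 UMIs of a class (CPM) with exact Poisson intervals, ratios had exact conditional binomial intervals, and shares were taken after thinning to 1000 UMIs, with exact binomial intervals. Age ratios used genes with at least 20 UMIs. The calling of age ratios past 2-fold and the interval of a ratio were checked on simulated counts, and the thinning was not. Named pathway genes were mostly those with the highest level in a class the text names or the largest age ratio. At most 4 per list were named, except for the integrin adaptors, of which more were. Vtn was named for its few UMIs. The members, lists and pathway genes were chosen with earlier results of these data known. Coordinates are from GENCODE M21 (GRCm38). Alternatives were Leiden clusters, 20 neighbours, doublets kept, classes from marker UMIs of single nuclei, means over nuclei, 2000 UMIs, at least 100 UMIs and a limit of 1.5-fold. Protein sequences were not used here.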

Additional observations from a re-analysis of the deposited data

Results flagged for a closer look

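The ratio of the Itga8 level in progenitor-like nuclei to that in stroma-like nuclei lay on opposite sides of 1 at the 2 ages. It was 1.59 (1.54-1.64) at E18.5 and 0.439 (0.420-0.459) at P3. The difference between the ages was not tested, because each age is 1 library. The P3 class held early nephron markers at a higher level than the E18.5 class, and their part in the ratio was not tested.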

How the results depend on the processing

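All of the comparisons of compartments kept their side of 1 under each setting that gave a value. Among the values for these comparisons, the shares, the joint detections and the count of age pairs, 73 moved by less than the counting interval (for the count, by less than 1.5 times) and 29 by more. With Leiden clusters, Itga8 in stroma-like over collecting system-like nuclei was 6.95 at E18.5, Itga8 in progenitor-like over collecting system-like nuclei 11.6, and Npnt in collecting system-like over progenitor-like nuclei 4.89. With called doublets kept, the first ratio was 21.5 at P3, Npnt 4.64 at E18.5, Fras1 in collecting system-like over stroma-like nuclei 8.16 at P3, Frem1 for the same classes 0.0664 at E18.5, the share of stroma-like nuclei with Itga8 31.6% and 54.9%, and 5 pairs of a member and a class were past 2-fold between the ages. With 20 neighbours, Npnt was 4.96 at E18.5 and 5 pairs were past 2-fold. At a limit of 1.5-fold, 28 pairs were past it. The share of all genes past 1.5-fold is not given here, so whether 28 is high or low is not known. With classes from marker UMIs of single nuclei, the values at E18.5 and P3 were 6.86 and 19.3 for Itga8 in stroma-like over collecting system-like nuclei, 8.14 and 15.5 for Npnt, 4.73 and 7.49 for Fras1, 2.93 and 3.82 for Frem2 and 29.4% and 47.8% for the share, with 8.69 for Itga8 in progenitor-like nuclei and 0.0398 for Frem1 at P3. Means over nuclei gave 6.33 for Itga8 in progenitor-like nuclei and 7.25 for Fras1 at P3. Thinned to 2000 UMIs, the share was 49.1% and 70.8%.

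Turned ratios were Frem2 in collecting system-like over proximal tubule-like nuclei at E18.5 (0.991 with Leiden, 0.860 by marker UMIs), Frem2 in progenitor over early nephron-like nuclei at P3 (0.534 with doublets kept, 0.276 by marker UMIs), Grip1 in collecting system-like over urothelium-like nuclei at P3 (0.956 by marker UMIs) and Itga6 in distal tubule-like over endothelium-like nuclei at P3 (0.833 with Leiden). The cause was not tested. Of 502 values for single genes, these 6 included, 462 lay within 1.5 times the value given. By the counting interval used above, 343 of them moved by less, 153 moved by more, and these 6 turned. On the other side of 1 lay 70, which were these 6 and 64 ratios between the ages of under 2-fold. Some classes stayed unnamed under Leiden or 20 neighbours and gave no value. No paired analysis was possible because each age is 1 library. Counts were low for Itga3 and for mural-like and Ebf2-led nuclei at P3, which have wide intervals.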

Other observations

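Some genes of the pathway lists also differed between the ages within a class, again with 1 library per age and no test. They were named because they were past 2-fold, and counts per list are given beside the share of all genes. Itgb6, highest in proximal tubule-like nuclei, was at least 2-fold higher at P3 in podocyte-like (2.85 times, 1.99-4.10), loop of Henle-like (2.25 times, 1.93-2.65), collecting system-like (2.06 times, 1.82-2.33), stroma-like (2.11 times, 1.89-2.35) and endothelium-like nuclei (2.26 times, 1.803-2.85), and also in leukocyte-like nuclei (2.41 times, 1.31-4.62, from 16 and 39 UMIs). Its levels in those classes stayed below 500 CPM, and its proximal tubule-like level was 1432 CPM at E18.5 and 1810 CPM at P3. Of the other β chains with enough UMIs, 1 of 3 was 2-fold higher in podocyte-like and 2 of 4 in loop of Henle-like nuclei. It was 1 of 4 in collecting system-like, 2 of 6 in stroma-like and 2 of 5 in endothelium-like nuclei, where 1 was 2-fold lower. The shares of all genes 2-fold higher were 2.87%, 6.57%, 4.25%, 3.53% and 3.2% in the same order. The talin gene Tln2, which links integrins to actin, was 2.77 times (2.39-3.23) higher in proximal tubule-like, 2.64 times (2.36-2.95) in collecting system-like and 2.06 times (1.47-2.88) in podocyte-like nuclei. Tns1 (tensin-1), found at the inner face of adhesions, was 2.75 times (1.93-3.95) higher in podocyte-like, 2.43 times (2.29-2.59) in proximal tubule-like and 2.20 times (1.94-2.49) higher in endothelium-like nuclei. Of 12 integrin adaptors, 2 were 2-fold higher in podocyte-like nuclei (2.87% of all genes) and 2 in proximal tubule-like nuclei (6.83%). The number was 1 in collecting system-like (4.25%) and 1 in endothelium-like nuclei (3.2%). It was 0 in stroma-like, loop of Henle-like and distal tubule-like nuclei. In leukocyte-like nuclei Tln2 was 2.03 times (1.37-3.03) and Tns1 2.07 times (1.19-3.73) higher, so these genes were also higher at P3 in the class read as background. In the progenitor-like classes Tnc was 0.400 times (0.362-0.440) and Kank1 0.487 times (0.435-0.545) the E18.5 level, while early nephron markers were higher there at P3. They were 1 of 4 other α8β1 ligands with enough UMIs and 1 of 12 adaptors 2-fold lower there, beside 12.5% of all genes.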
